A study of Mus musculus with 17 samples.

Results

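The interaction of Bap1 genotype and RANKL was measured over all 17 RNA sequencing samples of the series. A gene was chosen where the difference between the genotypes differed with and without RANKL, and each chosen gene was then looked at in the samples numbered 1 to 3 alone. Bone marrow macrophages (BMMs) were cultured in M-CSF, and the samples labelled OC, called preOCs in the study, had received M-CSF with 100 ng/ml RANKL for 24 h. Bap1flox mice carried floxed Bap1 alleles without Cre. Bap1LysM mice carried the same alleles and a Cre from the lysozyme M locus (Lyz2), which deletes Bap1 in the myeloid lineage rather than in osteoclasts alone. The groups held 3 Bap1flox BMM, 3 Bap1LysM BMM, 6 Bap1flox preOC and 5 Bap1LysM preOC samples. The preOCs came from male mice aged 20 weeks, and the sources used here give no age for the BMM mice. BMMs existed only under the numbers 1 to 3, which covered 11 samples, and the numbers 4 to 6 covered 6 further preOC samples.

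BAP1 is a nuclear deubiquitinase that takes ubiquitin off histone H2A, a mark placed by Polycomb complexes. RANKL turns macrophages into osteoclasts, the multinucleated cells that resorb bone. During this step macrophage genes fall, genes for resorption and mitochondria rise, and precursors pass through the cell cycle before they fuse. The interaction is the log2 genotype difference in preOCs minus that in BMMs. The same number is the RANKL response of Bap1LysM cells minus that of Bap1flox cells, so a positive value can come from a genotype effect in either cell state.

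Counts per sample lay between 37967542 and 61369441, and Xist, the RNA of the silenced X chromosome in females, stayed at or below 0.0669 CPM. Acp5, the TRAP enzyme of osteoclasts, was at 5.38 to 12.4 CPM (the count of a gene scaled by the total of its sample) in the BMMs and at 839 to 2775 CPM in the preOCs, so the cell labels held. Bap1LysM replicate 1 stood apart in both cell states. Lyz2, whose locus carries the Cre, was at 9588 CPM in that BMM sample against 35.7 and 31.1 CPM in the other Bap1LysM BMMs and 19895 to 22823 CPM in Bap1flox BMMs. In preOCs it was at 6890 CPM in replicate 1 against 12.7 to 41.5 CPM in the other 4, and the Bap1flox preOCs held 6525 to 12996 CPM. The label of replicate 1 was kept, and results are also given without it. Gene counts of Bap1 itself were 77.8 to 84.5 CPM in Bap1LysM BMMs against 83.7 to 87.1 CPM in Bap1flox BMMs, and the counts do not separate the deleted exons, so they check no label. Mitochondrially encoded genes took 0.450 to 0.990% of counts under the numbers 1 to 3 and 2.23 to 4.91% under 4 to 6, a difference that goes with the library set. Within 4 to 6 they took 3.14 to 4.91% in Bap1LysM and 2.23 to 3.43% in Bap1flox preOCs, and ribosomal RNA genes took 0.246 to 0.359% and 0.137 to 0.209%, without overlap. The term for the library set does not remove a difference between the genotypes within it, and its part in the results was not tested.

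Of 13810 genes tested, 1440 were called by the interaction (10.4% of the genes tested, adjusted p under 0.05, edgeR quasi-likelihood test, two-sided). Of these, 705 were positive (5.10% of the genes tested) and 735 negative (5.32%). With library totals in place of TMM factors, 462 were positive and 867 negative. The fold difference was at least 1.5 for 1036 of the 1440 genes. In replicates 1 to 3 alone edgeR called 0 genes, with 1733 at an unadjusted p under 0.05, voomWithQualityWeights called 0 with 885 and DESeq2 called 113, of which 104 were among the 1440. All 1440 kept their sign there, 1154 had an unadjusted p under 0.05 and 1183 had a smaller value, but 11 of the 17 samples were common to both fits. Part of the naming rule required an unadjusted p under 0.05 in replicates 1 to 3, and of the 108 called genes named, 18 did not have one and 15 had a value more than 1.5 times smaller there. With each of the 17 samples left out in turn, 34 of the 108 genes kept their call in every fit, 48 lost it in 1 to 7 fits and 26 in 8 or more. Leaving out Bap1LysM BMM 2 lost 69 of the 108 calls, Bap1flox BMM 1 and 3 lost 50 and 48, and no other sample lost more than 33. Genes given further on whose call was lost in 8 or more fits were Pmaip1, Adm, Itga8, Rasd2, Cdk6, Acsbg1, Csf3r, Ndufa12, Slc16a1, Osm, Tlr5, Kit, Ppbp, Cox7b, Clec10a, H2-Eb1, B4galt4, Insig1 and Slc38a2. With the replicate number as a block within each genotype, which leaves the interaction to replicates 1 to 3, 0 genes were called and 2383 had an unadjusted p under 0.05.

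The count depended on single cultures. Leaving out Bap1LysM BMM 2 left 322 calls, Bap1flox BMM 1 left 498 and Bap1flox BMM 3 left 566. Without Bap1flox preOC 4 or 5 there were 786 and 763 calls, without Bap1LysM preOC 4 or 5 there were 798 each, and without Bap1LysM preOC 1 there were 2236. Dropping Bap1LysM replicate 1 from both cell states gave 1751 calls, 1128 of them among the 1440, and all 1440 genes kept their sign. The genotype effect in preOCs was also compared between the numbers 4 to 6 and 1 to 3, since an additive term for the set takes it as alike. That comparison called 0 genes (0% of the genes tested) with 1011 at an unadjusted p under 0.05. On it, voomWithQualityWeights called 0 and DESeq2 called 37.

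The genotype difference itself was called for 1991 genes in BMMs (14.4% of the genes tested) and for 4527 in preOCs (32.8%). Among the 1440 interaction genes it was called in preOCs and not in BMMs for 709, in BMMs and not in preOCs for 445, in both for 160 and in neither for 126. Of the 160, 127 had opposite signs, 34 of them with a positive and 93 with a negative interaction. These splits describe the fit, since both differences are parts of the interaction.

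**Figure D1:**
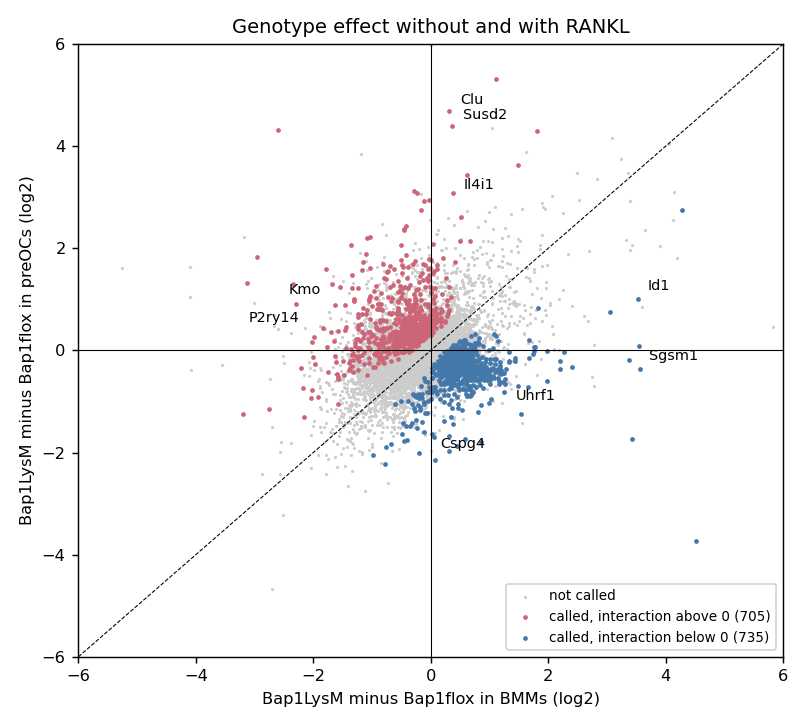
Genotype difference in preOCs (vertical axis, log2) against that in BMMs (horizontal axis, log2), 1 point per gene. The 705 genes with a positive interaction lie above the dashed line of equal differences and the 735 negative ones below it, and 1 gene lies outside the axes.

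The RANKL responses of the called genes are given as a description, since the interaction that chose them is the difference of the same responses and favours a fall in Bap1flox cells for positive and a rise for negative genes. Of the 705 positive genes, 538 fell with RANKL in Bap1flox cells and 293 fell in Bap1LysM cells. Of the 735 negative genes, 652 rose with RANKL in Bap1flox cells and 271 rose in Bap1LysM cells. Over all genes tested, 4305 fell and 4376 rose in Bap1flox cells, and 3218 fell and 3595 rose in Bap1LysM cells. Over all genes tested, which the interaction did not choose, the response was smaller in size in Bap1LysM cells for 65.3%. Median responses of the positive genes were -0.93 log2 in Bap1flox and -0.17 in Bap1LysM cells, and those of the negative genes were 1.04 and 0.22. The CPM of both genotypes did not overlap in BMMs for 789 of the 1440 genes, against 4588 of all 13810 genes tested (33.2%). In preOCs they did not overlap for 334 of the 1440 genes, against 1277 of all genes tested (9.25%).

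Genes of DNA replication and the cell cycle were mostly negative. Of 63 tested, 46 had a called negative interaction and 1 a called positive one, against 5.32% negative and 5.10% positive over all genes tested. The median of the 63 was -1.12 log2 against 0.04 for all genes tested. Over all 63, the genotype difference was above 0 in BMMs for 58 and below 0 in preOCs for 59. It was called as higher in Bap1LysM BMMs for 35 of the 63 and as lower for 1, and as lower in Bap1LysM preOCs for 33 and as higher for 1. Over all genes tested it was called, in either direction, for 14.4% in BMMs and 32.8% in preOCs, so the BMM count stands out more. In replicates 1 to 3 alone 45 of the 46 had an unadjusted p under 0.05, against 1154 of the 1440 called genes and 1733 of all 13810 genes tested. Without Bap1LysM replicate 1, 55 of the 63 were called negative, without Bap1LysM BMM 2 there were 27 and without Bap1flox BMM 1 there were 29. Over all 63, the RANKL response was a called rise for 53 and a called fall for 4 in Bap1flox cells, and a called rise for 13 and a called fall for 7 in Bap1LysM cells. Of all 13810 genes tested, 4376 had a called rise and 4305 a called fall in Bap1flox cells. In Bap1LysM cells these were 3595 and 3218. The interactions of the 46 lay between -1.92 and -0.76 log2.

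The group included each subunit of the MCM2-7 complex, the helicase that is loaded on replication origins and unwinds DNA, with interactions between -1.82 (Mcm5) and -1.16 log2 (Mcm4). The 250 bases before the transcription start of Mcm5, Mcm6 and Uhrf1 are shown because these genes moved together and E2F factors are known regulators of replication genes. The sequences are from RefSeq on GRCm38.p6, read 5′ to 3′ on the strand of the gene. Capitals mark the letters TTGGCGC or TTCCCGC on either strand, which are forms of an E2F-type motif.
Mcm5 (chr8:75109259-75109508, plus strand): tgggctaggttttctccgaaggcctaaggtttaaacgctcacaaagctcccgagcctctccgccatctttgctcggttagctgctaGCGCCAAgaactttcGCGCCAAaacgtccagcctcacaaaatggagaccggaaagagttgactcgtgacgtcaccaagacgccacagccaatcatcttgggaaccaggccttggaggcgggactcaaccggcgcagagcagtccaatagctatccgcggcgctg
Mcm6 (chr1:128359706-128359955, minus strand): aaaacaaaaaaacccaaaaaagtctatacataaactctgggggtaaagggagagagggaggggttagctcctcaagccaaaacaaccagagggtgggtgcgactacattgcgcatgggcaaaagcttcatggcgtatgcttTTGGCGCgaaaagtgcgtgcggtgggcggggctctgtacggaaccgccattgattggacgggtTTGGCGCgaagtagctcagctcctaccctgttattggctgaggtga
Uhrf1 (chr17:56303087-56303336, plus strand): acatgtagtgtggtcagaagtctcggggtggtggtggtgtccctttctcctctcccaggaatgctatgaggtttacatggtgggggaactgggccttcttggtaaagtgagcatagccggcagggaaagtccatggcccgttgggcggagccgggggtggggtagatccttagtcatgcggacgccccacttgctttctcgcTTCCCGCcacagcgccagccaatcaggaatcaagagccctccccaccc
The Mcm5 window held 2 such stretches, 164 and 149 bases before the start, the Mcm6 window held 2, 109 and 46 bases before it, and the Uhrf1 window held 1, 48 bases before it. A window with these letters was found for 14 of the 47 listed genes with an entry (29.8%), for 11 of 33 among those called negative (33.3%) and for 1135 of 9932 genes tested (11.4%). Over all windows of this length the share was 5.62%. The windows shown all held a match, so they do not stand for the list. A match is a stretch of letters and not a measured site, and the part of E2F factors was not tested.

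Mcm5 counts were 32.8, 59.998 and 45.7 CPM in Bap1flox BMMs and 105, 150.2 and 77.2 CPM in Bap1LysM BMMs. Bap1flox preOCs held 129.6 to 211 with a median of 164 CPM, and Bap1LysM preOCs held 157, 142, 82.7, 85.8 and 89.02 CPM. All Bap1LysM BMMs lay above all Bap1flox BMMs, while in preOCs replicates 1 and 2 of Bap1LysM lay within the Bap1flox range and replicates 4 to 6 below it. The genotype difference was 1.27 ± 0.23 log2 (SE) in BMMs and -0.56 ± 0.17 log2 in preOCs, and the interaction was -1.82 ± 0.29 log2 (adjusted p = 0.00822). In replicates 1 to 3 alone it was -1.55 log2 (unadjusted p = 0.00272, edgeR).

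Mcm6, another subunit of the same helicase, was at 58.3, 96.3 and 78.2 CPM in Bap1flox BMMs and at 158, 201 and 114 CPM in Bap1LysM BMMs. It reached 262 to 306 with a median of 284 CPM in Bap1flox preOCs and 226, 237, 214, 202 and 227 CPM in Bap1LysM preOCs. The genotypes did not overlap in either cell state, and they stood in opposite order. Its interaction was -1.38 ± 0.22 log2 (adjusted p = 0.00822), and that of Mcm10, which helps to start unwinding, was -1.68 ± 0.26 log2 (adjusted p = 0.00822). The RANKL response of Mcm10 was 2.04 log2 in Bap1flox cells and 0.36 log2 in Bap1LysM cells.

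Uhrf1 keeps DNA methylation on newly copied DNA. It was at 24.3, 51.8 and 38.1 CPM in Bap1flox BMMs and 81.9, 124 and 68.8 CPM in Bap1LysM BMMs, with no overlap. Bap1flox preOCs lay at 139.6 to 222 with a median of 168 CPM. Among Bap1LysM preOCs the values were 157, 138, 78.5, 80.8 and 84.7 CPM, of which replicate 1 lay within the Bap1flox range and the other 4 below it. The interaction was -1.92 ± 0.30 log2 (adjusted p = 0.00822), and without Bap1LysM replicate 1 it was -2.09 log2 (adjusted p = 0.00424).

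Gins2 codes for a subunit of the GINS complex, which joins MCM2-7 in the active helicase. Its CPM were 9.93, 14.96 and 10.6 in Bap1flox BMMs and 20.4, 24.1 and 16.1 in Bap1LysM BMMs. In preOCs the order turned, with 17.4 to 29.6 with a median of 21.4 CPM in Bap1flox and 19.05, 16.01, 9.94, 10.3 and 9.92 CPM in Bap1LysM samples. The interaction of Gins2 was -1.49 ± 0.23 log2 (adjusted p = 0.00822), and RANKL moved it by 1.16 log2 in Bap1flox and by -0.33 log2 in Bap1LysM cells. Timeless, which protects replication forks, behaved alike, at 11.96 ± 3.09 CPM (SD, n = 3) in Bap1flox BMMs, 26.8 ± 7.96 (n = 3) in Bap1LysM BMMs, 36.8 ± 4.74 (n = 6) in Bap1flox preOCs and 23.4 ± 8.52 (n = 5) in Bap1LysM preOCs. Its interaction was -1.82 ± 0.28 log2 (adjusted p = 0.00822).

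Myc, a transcription factor that drives growth and division, was at 13.7, 23.2 and 19.9 CPM in Bap1flox BMMs and 28.5, 38.9 and 20.98 CPM in Bap1LysM BMMs, of which replicate 3 lay within the control range. RANKL took it to 132 to 173 with a median of 162 CPM in Bap1flox preOCs and to 107, 131, 78.4, 68.7 and 78.1 CPM in Bap1LysM preOCs, whose highest sample lay below the lowest Bap1flox sample. The interaction was -1.40 ± 0.25 log2 (adjusted p = 0.00967). Cdkn1b, which codes for the cell-cycle inhibitor p27, was the single listed gene called positive (0.74 ± 0.19 log2, adjusted p = 0.0295), and it is named here after its value was seen. Mki67, a marker of cycling cells, did not pass (-0.79 ± 0.31 log2, adjusted p = 0.11). Its highest BMM value, 405 CPM, was in Bap1LysM BMM 2, the culture whose removal lowered the count of calls most, and the other Bap1LysM BMMs held 160 and 228 CPM against 154 to 191 CPM in Bap1flox. In bulk samples, a smaller share of cycling cells and less of these transcripts per cell cannot be told apart.

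**Figure D2:**
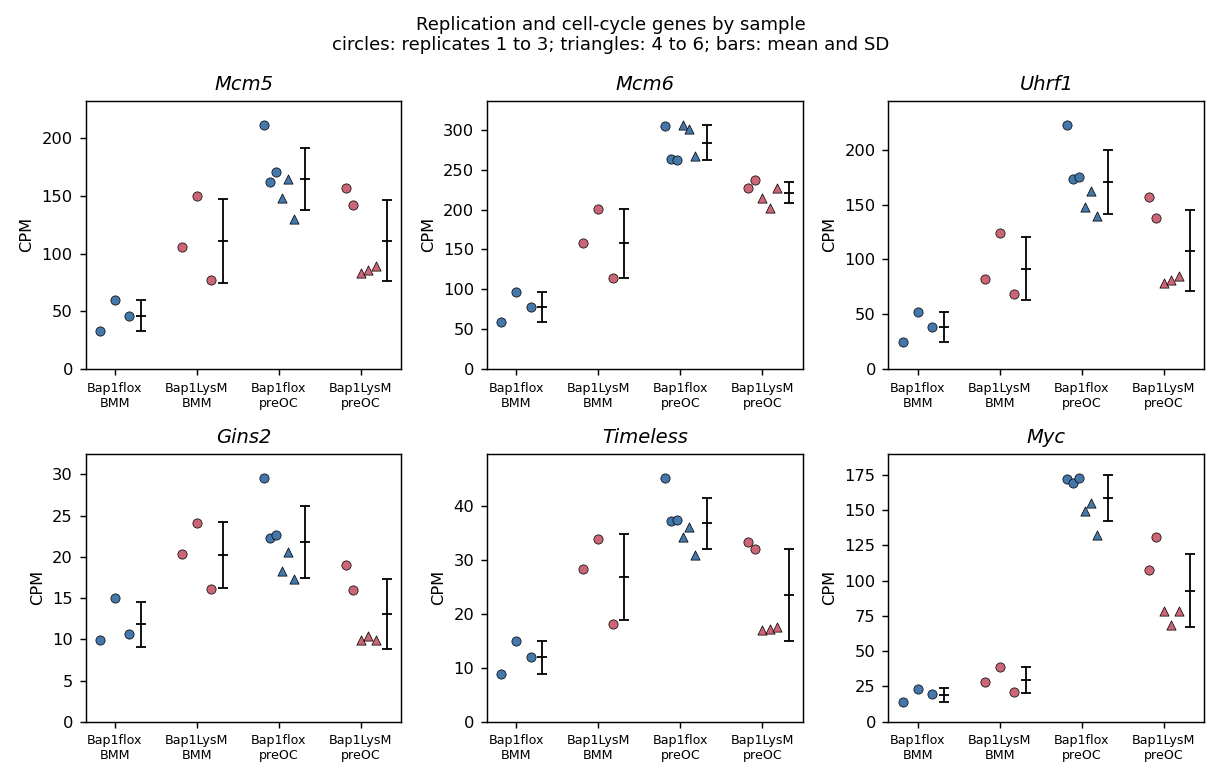
CPM of 6 genes (vertical axes from 0) in every sample of the 4 groups, with the mean and SD. In each panel Bap1LysM BMMs have a higher mean than Bap1flox BMMs and Bap1LysM preOCs a lower mean than Bap1flox preOCs.

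Among the positive genes, a first set was lower in Bap1LysM BMMs, with a smaller or opposite difference after RANKL. P2ry14 (chromosome 3, 59114626 to 59130624, GRCm38) is a receptor for UDP-sugars, and it was among the 5 positive genes named by p. It was at 25.1, 15.5 and 15.4 CPM in Bap1flox BMMs and 5.81, 3.68 and 4.60 CPM in Bap1LysM BMMs, so the genotypes did not overlap. Bap1flox preOCs held 27.6 to 44.1 with a median of 34.02 CPM and Bap1LysM preOCs 27.7, 31.9, 56.1, 58.6 and 55.4 CPM, with replicates 1 and 2 in the control range and 4 to 6 above it. The genotype difference was -1.99 ± 0.20 log2 in BMMs (adjusted p = 6.70e-05) and 0.27 ± 0.14 log2 in preOCs (adjusted p = 0.151). The interaction was 2.26 ± 0.24 log2 (adjusted p = 0.00127), and it was 2.00 log2 in replicates 1 to 3 alone (unadjusted p = 8.55e-05).

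Gstt3 codes for a theta-class glutathione transferase, an enzyme that joins glutathione to other molecules. Its CPM were 7.96, 6.67 and 6.93 in Bap1flox BMMs and 3.07, 3.41 and 3.24 in Bap1LysM BMMs. After RANKL they were 9.46 to 10.8 with a median of 10.5 in Bap1flox and 8.73, 12.5, 13.4, 15.4 and 12.8 in Bap1LysM preOCs, where replicate 1 lay below all controls and the other 4 above them. The interaction was 1.40 ± 0.17 log2 (adjusted p = 0.00308), and its neighbours in the same family passed as well, Gstt1 with 2.07 ± 0.50 log2 (adjusted p = 0.0214) and Gstt2 with 1.32 ± 0.28 log2 (adjusted p = 0.0137). Gstt1 was not called by voomWithQualityWeights (adjusted p = 0.0535), nor without Bap1flox BMM 3 (adjusted p = 0.0719) or Bap1LysM BMM 2 (adjusted p = 0.0683). The study counted reads that aligned uniquely and without ambiguity, so a read matching several of these related genes would count for none of them.

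Bmf, a BH3-only protein that promotes apoptosis, was at 51.5, 18.7 and 26.98 CPM in Bap1flox BMMs and 10.8, 5.69 and 7.78 CPM in Bap1LysM BMMs. The genotypes overlapped in preOCs, at 20.5 to 48.9 with a median of 36.2 CPM and 15.7, 24.3, 53.8, 50.02 and 36.5 CPM, and the interaction was 1.87 ± 0.41 log2 (adjusted p = 0.015). Cbx7 codes for a chromodomain subunit of Polycomb repressive complex 1, the complex whose H2A mark BAP1 removes. It was at 33.1, 23.6 and 27.04 CPM in Bap1flox BMMs and 11.5, 7.72 and 13.3 CPM in Bap1LysM BMMs, and at 23.7 ± 3.72 CPM (SD, n = 6) and 24.6 ± 6.90 CPM (n = 5) in preOCs. Its interaction was 1.40 ± 0.32 log2 (adjusted p = 0.0169). For Setd7, a lysine methyltransferase, the difference was negative in both states but larger in BMMs, at -1.33 ± 0.10 log2 against -0.42 ± 0.08 log2 in preOCs, and the interaction was 0.91 ± 0.13 log2 (adjusted p = 0.00725).

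A second positive set differed between genotypes in preOCs and hardly in BMMs. Susd2 (chromosome 10, 75636619 to 75644008, GRCm38), a membrane protein with sushi domains, was at 0.598, 2.27 and 1.87 CPM in Bap1flox BMMs, 1.53, 1.85 and 2.70 CPM in Bap1LysM BMMs and 0.433 to 1.77 with a median of 0.74 CPM in Bap1flox preOCs. All 5 Bap1LysM preOCs lay above every other sample of the series, at 30.7, 15.7, 19.3, 12.2 and 12.3 CPM. The interaction was 4.02 ± 0.55 log2 (adjusted p = 0.00686), the genotype difference in preOCs was 4.39 ± 0.34 log2 and that in BMMs was 0.37 ± 0.43 log2.

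Clu, which codes for the secreted chaperone clusterin, was among the 10 positive genes named by size, with an interaction of 4.38 ± 1.14 log2 (adjusted p = 0.0282). It stayed under 0.6 CPM in all BMMs and at 0.2 to 1.84 with a median of 1.32 CPM in Bap1flox preOCs. Bap1LysM preOCs held 1.68, 24.8, 71.4, 63.9 and 46.1 CPM, so replicate 1 lay within the control range and the other 4 far above it. Without Bap1LysM replicate 1 the value was 4.66 log2 (adjusted p = 0.00424), while voomWithQualityWeights did not call it (adjusted p = 0.0721) and 5 of the fits that left out 1 sample lost it (adjusted p up to 0.096), those without Bap1flox BMM 2 or 3, Bap1LysM BMM 1 or 2, or Bap1flox preOC 5. Il4i1, an L-amino-acid oxidase, was at 4.51, 5.19 and 5.34 CPM in Bap1flox BMMs, 4.67, 5.22 and 9.54 CPM in Bap1LysM BMMs, 3.16 to 14.7 with a median of 12.6 CPM in Bap1flox preOCs and 41.4, 63.8, 168, 161 and 100.1 CPM in Bap1LysM preOCs. No Bap1LysM preOC overlapped the controls, and the interaction was 2.71 ± 0.49 log2 (adjusted p = 0.00967). Rasd2, a small G protein, had 2.82 ± 0.76 log2 (adjusted p = 0.032). Rasd2 was not called by voomWithQualityWeights (adjusted p = 0.108) or in 8 of the fits that left out 1 sample (adjusted p up to 0.148), those without Bap1flox or Bap1LysM preOC 4 or 5, Bap1flox BMM 1 or 3, or Bap1LysM BMM 1 or 2.

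Other genes of the second set fell with RANKL in control cells by more than in Bap1LysM cells. Ggt5 codes for a gamma-glutamyltransferase that cleaves leukotrienes and glutathione conjugates. It fell from 41.2, 28.4 and 33.6 CPM in Bap1flox BMMs to 0.956 to 2.42 with a median of 1.24 CPM in Bap1flox preOCs. Bap1LysM cells went from 23.5, 18.6 and 33.3 CPM to 8.67, 4.18, 6.99, 8.04 and 6.32 CPM, so that the genotypes overlapped in BMMs and not in preOCs. The RANKL response was -4.56 log2 in Bap1flox and -1.74 log2 in Bap1LysM cells, with an interaction of 2.82 ± 0.39 log2 (adjusted p = 0.00686). Gprc5c, an orphan receptor, responded by -4.37 and -1.54 log2 in the same order (interaction 2.83 ± 0.55 log2, adjusted p = 0.0106). Hpgd, which inactivates prostaglandins, did not belong to this set. It was at 23.3, 12.3 and 17.4 CPM in Bap1flox BMMs and 6.49, 8.16 and 9.22 CPM in Bap1LysM BMMs, without overlap. Its Bap1LysM preOCs held 0.574, 0.492, 14.02, 6.50 and 13.4 CPM against 0.48 to 2.81 with a median of 1.03 CPM in Bap1flox preOCs, so only replicates 4 to 6 of the 5 Bap1LysM samples lay above the controls. The interaction of Hpgd was 2.87 ± 0.65 log2 (adjusted p = 0.0169) and 1.13 log2 in replicates 1 to 3 alone.

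**Figure D3:**
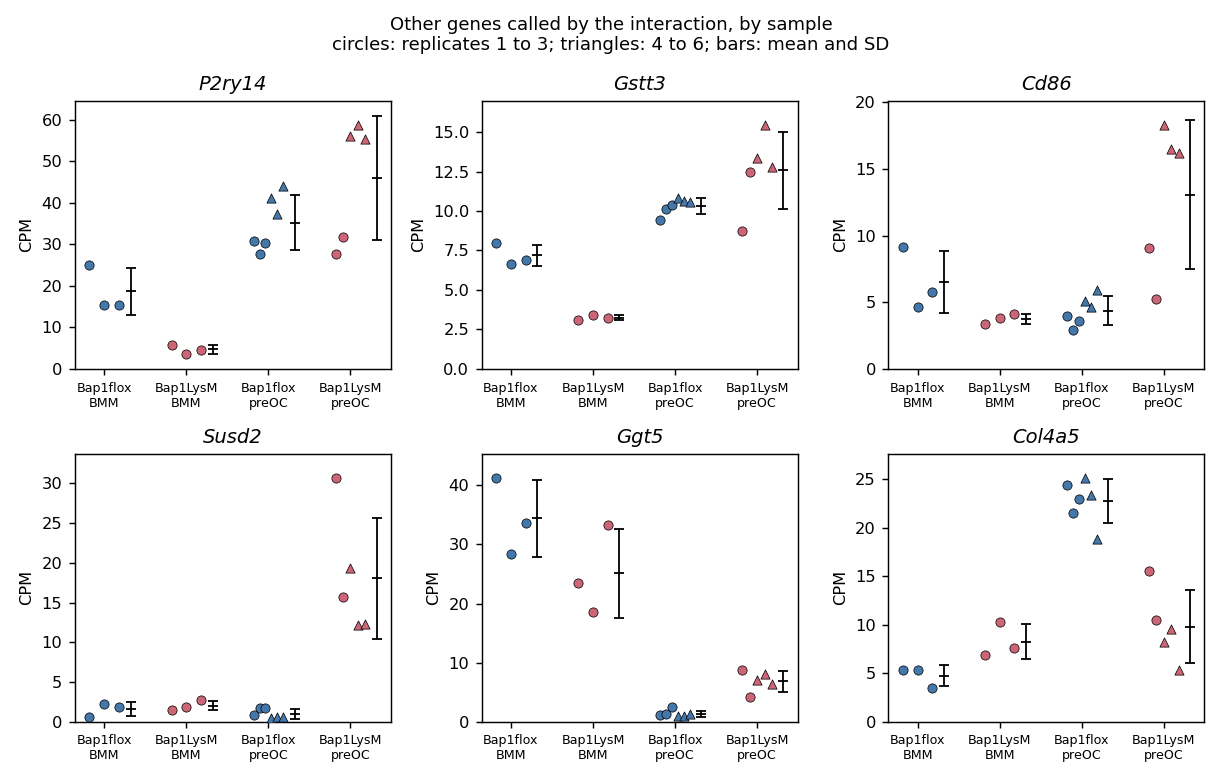
CPM of 6 further genes (vertical axes from 0) in every sample of the 4 groups, with the mean and SD. P2ry14 and Gstt3 separate the genotypes in BMMs, Susd2 and Ggt5 separate them in preOCs, and Col4a5 is lower in all 5 Bap1LysM preOCs than in the 6 controls.

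Genes of macrophage immune functions were counted by list, and the counts are read against the 5.10% positive and 5.32% negative over all genes tested. Of 13 tested genes of MHC class II presentation 3 were positive and 0 negative, with a median of 0.81 log2 against 0.04 for all genes. Cd86, a costimulatory ligand for T cells, was at 9.12, 4.64 and 5.77 CPM in Bap1flox BMMs and 3.39, 3.79 and 4.12 CPM in Bap1LysM BMMs. It was at 2.93 to 5.95 with a median of 4.31 CPM in Bap1flox preOCs and 9.09, 5.26, 18.3, 16.5 and 16.2 CPM in Bap1LysM preOCs, where replicates 1 and 4 to 6 lay above all controls and replicate 2 within them. Its interaction was 2.21 ± 0.32 log2 (adjusted p = 0.00822), followed by H2-DMa, a peptide-loading chain, with 1.14 ± 0.24 log2 (adjusted p = 0.0137) and H2-Eb1, a class II chain, with 1.14 ± 0.33 log2 (adjusted p = 0.0398). In replicates 1 to 3 alone H2-DMa was at 0.63 log2 (unadjusted p = 0.00677) and H2-Eb1 at 0.69 log2 (unadjusted p = 0.0653), and the call of H2-Eb1 was lost in 12 of the 17 fits that left out 1 sample (adjusted p up to 0.137). Of the 13, 6 were positive without Bap1LysM replicate 1.

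Of 27 chemokines and chemokine receptors 3 were positive and 0 negative (median 0.27 log2). Cxcr4, the receptor for CXCL12, was at 111, 68.7 and 73.04 CPM in Bap1flox BMMs and 70.5, 36.4 and 51.8 CPM in Bap1LysM BMMs, which overlapped. It was at 57.5 to 108 with a median of 77.5 CPM in Bap1flox preOCs and 110.3, 101, 239, 189 and 208 CPM in Bap1LysM preOCs, where replicates 4 to 6 stood well above all controls, replicate 1 just above them and replicate 2 within them. The interaction was 1.64 ± 0.28 log2 (adjusted p = 0.00914). Ccl24, an eosinophil attractant, had 3.32 ± 0.71 log2 (adjusted p = 0.0144), and Ppbp, a platelet chemokine, had 1.99 ± 0.61 log2 (adjusted p = 0.0495), which in replicates 1 to 3 alone was 1.05 log2 (unadjusted p = 0.173) and was not called with the replicate number as an additive block (adjusted p = 0.0705) or in 11 of the 17 fits that left out 1 sample (adjusted p up to 0.169). The list had 5 positive and 2 negative genes (median 0.05 log2) without Bap1LysM replicate 1.

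Toll-like receptors and their adaptors had 2 positive genes and 1 negative gene of 19 (median 0.54 log2). Tlr9, a sensor of unmethylated DNA, had 1.90 ± 0.40 log2 (adjusted p = 0.0144), Tlr5, a flagellin receptor, had 1.37 ± 0.38 log2 (adjusted p = 0.0362), and the adaptor gene Tirap had -0.76 ± 0.17 log2 (adjusted p = 0.0173). Tlr5 was at 0.89 log2 in replicates 1 to 3 alone (unadjusted p = 0.107), and without Bap1LysM replicate 1 its call was lost (adjusted p = 0.0711), which left 1 positive and 1 negative gene of 19. Its call was also lost with the additive replicate block (adjusted p = 0.0530). Macrophage identity genes had 3 positive genes and 1 negative gene of 32 (median 0.67 log2), and without Bap1LysM replicate 1 there were 4 and 3. Csf1r, the M-CSF receptor, fell with RANKL by 1.65 log2 in Bap1flox and by 1.01 log2 in Bap1LysM cells. It held 3794 ± 659 CPM (SD, n = 3) in Bap1flox BMMs, 3233 ± 448 (n = 3) in Bap1LysM BMMs, 1326 ± 103 (n = 6) in Bap1flox preOCs and 1807 ± 286 (n = 5) in Bap1LysM preOCs, where the groups nearly touched, the lowest Bap1LysM sample being at 1450.1 CPM and the highest control at 1448 CPM. The interaction of Csf1r was 0.64 ± 0.16 log2 (adjusted p = 0.0263). The C-type lectins Clec4n (2.02 ± 0.46 log2, adjusted p = 0.0168) and Clec10a (2.74 ± 0.79 log2, adjusted p = 0.0406) were positive. In replicates 1 to 3 alone Clec10a was at 1.13 log2 (unadjusted p = 0.156), and its genotype difference in preOCs was -0.04 log2 there against 2.66 log2 in replicates 4 to 6 (unadjusted p of the difference = 0.00131). Its call was lost in 12 of the 17 fits that left out 1 sample (adjusted p up to 0.128). Lpl, which codes for lipoprotein lipase, was negative (-1.24 ± 0.33 log2, adjusted p = 0.0303). Vegfa and Osm were the inflammatory mediators called, 2 of 27, with 1.40 ± 0.30 and 0.61 ± 0.17 log2 (adjusted p = 0.0144 and 0.0369), and Osm was not called with the additive replicate block (adjusted p = 0.0553).

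Some markers of other cell types were among the positive genes, to be read against 5.10% positive and 5.32% negative over all genes tested. The neutrophil and stromal counts below are near these shares. Dendritic cell markers had 2 positive genes of 11 tested (Batf3 and Irf4), and their summed level was 1966 to 2047 CPM in Bap1flox BMMs, 2125 to 2794 CPM in Bap1LysM BMMs, 1634 to 2299 CPM in Bap1flox preOCs and 1901 to 2836 CPM in Bap1LysM preOCs. Neutrophil markers had 1 positive gene of 17 (Csf3r), with sums of 394 to 480.1 CPM, 360 to 524 CPM, 113 to 292 CPM and 227 to 770.1 CPM in the same order of groups. Erythroid and megakaryocyte markers had 2 positive genes of 4 tested (Epor and Ppbp), with sums of 484 to 782 CPM, 279 to 375 CPM, 27.02 to 59.2 CPM and 29.98 to 59.9 CPM, and 11 of the 15 listed genes stayed below 1 CPM in all samples. Cd4, the single T and NK cell marker tested, had an interaction of 3.19 ± 0.73 log2 (adjusted p = 0.0173) while the other 13 markers, the CD3 chains among them, stayed below 1 CPM in all samples. Stromal markers had 1 positive gene of 19 (Runx2), with sums of 1062 to 4902 CPM, 750.2 to 2394 CPM, 363 to 3125 CPM and 216 to 1951 CPM. Mast cell markers had 1 positive gene of 5 (Kit), progenitor markers had 1 positive and 1 negative gene of 13 (Kit and Cdk6), and B and plasma cell markers had 0 of 8, with 2 at an unadjusted p under 0.05. Csf3r (adjusted p = 0.0817) and Kit (adjusted p = 0.0551) were not called without Bap1LysM replicate 1, and 5 of the 11 dendritic cell markers were then positive. The part of other cells in the interaction was not tested.

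Genes whose genotype difference was called with opposite signs in both cell states included 5 positive ones named by size. Kmo, a monooxygenase of the kynurenine pathway, was at 12.3, 5.57 and 8.20 CPM in Bap1flox BMMs and 1.67, 2.21 and 4.50 CPM in Bap1LysM BMMs. In preOCs it was low in both genotypes, at 0.4 to 0.793 with a median of 0.722 CPM and 0.713, 0.713, 1.43, 2.11 and 1.77 CPM. The interaction was 2.52 ± 0.48 log2 (adjusted p = 0.00987). Gpr162, an orphan receptor, was at 50.7, 21.1 and 29.3 CPM in Bap1flox BMMs and 11.3, 5.11 and 18.1 CPM in Bap1LysM BMMs, and at 13.3 to 23.9 with a median of 18.2 CPM in Bap1flox preOCs and 54.1, 22.9, 56.99, 54.3 and 35.3 CPM in Bap1LysM preOCs, where 1 of 5 samples overlapped the controls. Its interaction was 2.80 ± 0.54 log2 (adjusted p = 0.0103). Tspan10, Nwd1 and Slc1a2 were below 4 CPM in all group means. On the negative side the set held Mcm5, Uhrf1, Timeless, Chst3 and Gm5648, and Chst3, a sulfotransferase of chondroitin, was at 1.57 ± 0.386 CPM (SD, n = 3) and 3.72 ± 1.47 CPM (n = 3) in Bap1flox and Bap1LysM BMMs and at 1.22 ± 0.178 CPM (n = 6) and 0.691 ± 0.201 CPM (n = 5) in preOCs.

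Other negative genes started higher in Bap1LysM BMMs. Id1 codes for an inhibitor of helix-loop-helix transcription factors. It was at 2.02, 4.37 and 4.64 CPM in Bap1flox BMMs and 70.2, 42.5 and 15.0003 CPM in Bap1LysM BMMs. Bap1flox preOCs held 0.513 to 3.81 with a median of 2.26 CPM and Bap1LysM preOCs 13.6, 4.28, 1.84, 1.62 and 1.43 CPM, with replicate 1 far above the rest. The interaction of Id1 was -2.52 ± 0.65 log2 (adjusted p = 0.0277), and -2.46 log2 without Bap1LysM replicate 1 (adjusted p = 0.0119).

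Sgsm1, a modulator of small G proteins, was at 0.0771, 0.201 and 0.159 CPM in Bap1flox BMMs and at 0.148, 3.08 and 1.90 CPM in Bap1LysM BMMs, of which replicate 1 lay within the control range. In preOCs it was at 3.06 to 9.03 with a median of 5.52 CPM and 4.14, 8.66, 3.14, 3.97 and 2.78 CPM. The interaction was -3.92 ± 0.92 log2 (adjusted p = 0.0195). Bdh2, a dehydrogenase of cytosolic ketone body metabolism, was at 0.135, 0.312 and 0.159 CPM and 2.07, 0.691 and 0.48 CPM in Bap1flox and Bap1LysM BMMs, rising to 15.8 to 25.3 with a median of 19.004 CPM and 8.71, 20.6, 17.1, 14.5 and 18.6 CPM in preOCs. Its interaction was -2.72 ± 0.62 log2 (adjusted p = 0.0172), and -1.71 log2 without Bap1LysM replicate 1, whose BMM sample was the highest (adjusted p = 0.0207). Nup210, a nuclear pore protein, was at 6.81, 11.04 and 10.2 CPM and 20.5, 34.8 and 20.2 CPM in BMMs, without overlap, and overlapped in preOCs (interaction -1.63 ± 0.25 log2, adjusted p = 0.00822). Cacnb2, a calcium channel subunit, had -2.57 ± 0.60 log2 (adjusted p = 0.0194). Its BMM values were near the floor, at 0.0386 to 0.0796 CPM in Bap1flox and 0.148 to 0.357 CPM in Bap1LysM samples. In preOCs it was at 4.86 to 9.62 and 3.07 to 6.32 CPM, and its call was lost in 2 of the fits that left out 1 sample.

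A last negative set was lower in Bap1LysM preOCs. Col4a5 (chromosome X, 141475385 to 141689234, GRCm38) codes for a chain of type IV collagen. It was at 5.34, 5.37 and 3.48 CPM in Bap1flox BMMs, 6.89, 10.3 and 7.60 CPM in Bap1LysM BMMs, 18.9 to 25.1 with a median of 23.2 CPM in Bap1flox preOCs and 15.6, 10.5, 8.20, 9.56 and 5.29 CPM in Bap1LysM preOCs. The genotypes did not overlap in either state, and the interaction was -2.02 ± 0.33 log2 (adjusted p = 0.00822). Cspg4, a transmembrane proteoglycan, overlapped between the genotypes in BMMs, at 1.18, 1.36 and 1.63 CPM and 1.33, 1.56 and 1.32 CPM. RANKL took it to 3.85 to 10.4 with a median of 7.30 CPM in Bap1flox and to 2.87, 3.79, 1.36, 1.12 and 1.75 CPM in Bap1LysM preOCs, without overlap (interaction -1.64 ± 0.26 log2, adjusted p = 0.00822). Acsbg1 (-2.31 ± 0.64 log2), Smpdl3b (-2.28 ± 0.51 log2), Itga8 (-2.22 ± 0.63 log2) and Eef1a2 (-1.98 ± 0.51 log2) belonged to the same set, with a mean of at most 1.70 CPM in Bap1LysM preOCs for each. In replicates 1 to 3 alone Eef1a2 was at -1.18 log2 (unadjusted p = 0.0469). Leaving out Bap1LysM BMM 2 took Itga8 to -1.32 log2 (adjusted p = 0.151), Acsbg1 to -2.04 log2 (adjusted p = 0.124), Eef1a2 to -1.70 log2 (adjusted p = 0.0924) and Smpdl3b to -2.08 log2 (adjusted p = 0.0578). With each sample left out in turn, the calls of Acsbg1 and Itga8 were lost in 9 and 8 of the 17 fits.

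**Figure D4:**
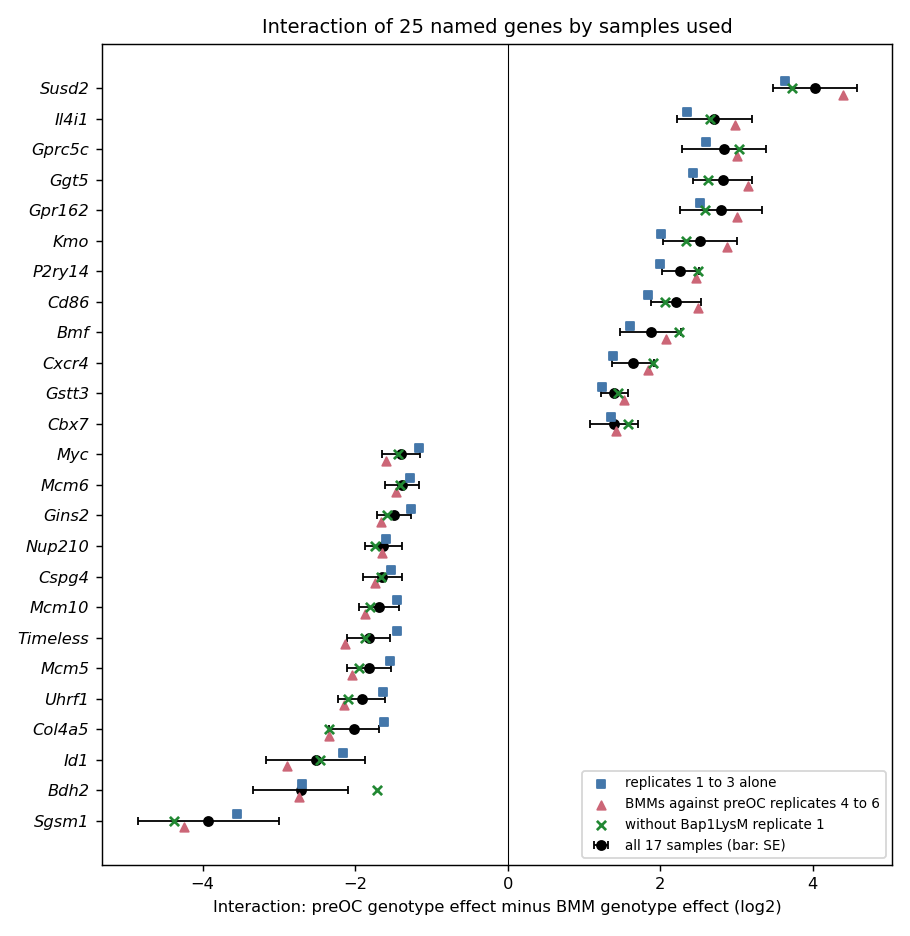
Interaction of 25 named genes (log2, horizontal axis) from all 17 samples with its SE, from replicates 1 to 3 alone, from BMMs against preOC replicates 4 to 6, and without Bap1LysM replicate 1. All 4 estimates of each gene lie on the same side of 0, and Bdh2 moves most when replicate 1 is left out, from -2.72 to -1.71.

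Genes that define osteoclasts were taken from a pair of lists, to be read against the 10.4% called over all genes. Of 32 tested genes of bone resorption and cell fusion 0 were called by edgeR, 4 had an unadjusted p under 0.05, and the median was 0.10 log2. Nfatc1, the lead transcription factor of osteoclasts, had 0.23 ± 0.28 log2 (adjusted p = 0.627), the integrin gene Itgb3 0.21 ± 0.24 log2 (adjusted p = 0.609), the collagenase gene Ctsk -0.28 ± 0.45 log2 (adjusted p = 0.719) and Acp5 0.49 ± 0.44 log2 (adjusted p = 0.509). Ctsk rose with RANKL by 7.42 log2 in Bap1flox and 7.13 log2 in Bap1LysM cells. Without Bap1LysM replicate 1, the preOC with the lowest Acp5 and Ctsk, the interaction of Ctsk was 0.52 log2 (adjusted p = 0.234), that of Acp5 was 0.81 log2 (adjusted p = 0.18) and 1 of the 32 genes was called. Of 26 osteoclast transcription factors and repressors 2 were called, near the share over all genes: Id1 was negative and Tfec, a relative of MITF, was positive (0.72 ± 0.15 log2, adjusted p = 0.0136). Without Bap1LysM replicate 1, 2 of the 26 were positive and 2 negative.

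Genes of the cystine and glutathione route are given because the study follows Slc7a11. This cystine transporter gene was at 10.1, 5.02 and 6.81 CPM in Bap1flox BMMs and 12.5, 7.83 and 9.30 CPM in Bap1LysM BMMs. After RANKL it was at 12.4 to 26.95 with a median of 16.6 CPM in Bap1flox and 48.1, 35.3, 43.1, 39.1 and 44.8 CPM in Bap1LysM preOCs, and the genotypes overlapped in BMMs and not in preOCs. Its genotype difference was 0.43 ± 0.26 log2 in BMMs and 1.28 ± 0.19 log2 in preOCs, but the interaction of 0.85 ± 0.32 log2 did not pass (adjusted p = 0.0979). It was 0.52 log2 without Bap1flox BMM 1 (adjusted p = 0.340) and was called without Bap1flox preOC 6 (1.00 log2, adjusted p = 0.0414). Gclc, for the first step of glutathione synthesis, had -0.44 ± 0.20 log2 (adjusted p = 0.167) and Gss, for the second, had -0.30 ± 0.21 log2 (adjusted p = 0.376). Ppargc1b, a coactivator of mitochondrial genes, had -0.21 ± 0.30 log2 (adjusted p = 0.685). Ehhadh, a peroxisomal enzyme of fatty acid oxidation, was lower in Bap1LysM cells in both states, by 1.79 log2 in BMMs (adjusted p = 0.00718) and by 2.05 log2 in preOCs (adjusted p = 1.63e-04), with an interaction of -0.26 ± 0.47 log2 (adjusted p = 0.751). Fabp7, a lipid carrier, had -2.97 ± 0.92 log2 (adjusted p = 0.0523) and was called by voomWithQualityWeights (adjusted p = 0.00235) and DESeq2 (adjusted p = 0.00725), but its value was -1.79 log2 in replicates 1 to 3 alone (unadjusted p = 0.135) and -1.86 log2 without Bap1LysM BMM 1 (adjusted p = 0.193). Gclc was called by voomWithQualityWeights (adjusted p = 0.00826) and with the additive replicate block (adjusted p = 0.0473). Without Bap1LysM replicate 1 the adjusted p of Fabp7 was 0.00526 and that of Gclc was 0.0288. B4galt4, a galactosyltransferase, had -1.13 ± 0.34 log2 (adjusted p = 0.046) and -0.62 log2 in replicates 1 to 3 alone (unadjusted p = 0.118), and its call was lost in 13 of the 17 fits that left out 1 sample (adjusted p up to 0.126). Of 45 NRF2 target and glutathione genes 4 were positive, which were Ggt5 and the Gstt genes above, and Mgst3, a microsomal glutathione transferase gene, was negative (-0.99 ± 0.24 log2, adjusted p = 0.0217). There were 4 of each without Bap1LysM replicate 1.

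Polycomb genes, BAP1 partners and H3K27 modifiers had 6 positive and 2 negative genes of 46, with a median of 0.16 log2. Among the positive ones were Cbx7, Ogt (0.77 ± 0.17 log2), Rybp (0.54 ± 0.13 log2) and Kdm6b (1.09 ± 0.28 log2), and the negative ones were Phf19 (-1.18 ± 0.29 log2) and Ezh2. Ogt codes for the sugar transferase of the BAP1 complex and Kdm6b for a demethylase of H3K27.

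Glycolysis genes were called on both sides, 4 positive and 4 negative of 37 with a median of -0.02 log2. The hormone gene Adm, on this list, had 3.03 ± 0.81 log2 (adjusted p = 0.0305) and 1.38 log2 in replicates 1 to 3 alone (unadjusted p = 0.0728). Hk2, the hexokinase of the first step, had -0.80 ± 0.19 log2 (adjusted p = 0.0199), with -0.43 log2 in replicates 1 to 3 alone, and Pfkfb3, which makes the activator of phosphofructokinase, had 1.13 ± 0.26 log2 (adjusted p = 0.0187). Of 223 solute carriers 24 were positive and 7 negative, with 19 and 13 without Bap1LysM replicate 1, and Slc26a11 (1.70 ± 0.30 log2) and Slc46a3 (1.16 ± 0.27 log2) were among the positive ones. Nuclear-encoded subunits of the respiratory chain had 0 positive and 2 negative genes of 94 (Ndufa12 and Cox7b), with a median of -0.12 log2. At an unadjusted p under 0.05, 2 were positive and 13 negative, and 25 of the 94 lay above 0. Without Bap1LysM replicate 1 this list had 1 positive and 1 negative gene, and Ndufa12 was not called (adjusted p = 0.0696). Mitochondrial ribosomal proteins had 1 positive and 3 negative genes of 76, with a median of -0.20 log2. At an unadjusted p under 0.05, 1 was positive and 24 were negative, and 13 of the 76 lay above 0. Of all 13810 genes tested, 3783 had an unadjusted p under 0.05 in either direction. None of the 13 mitochondrially encoded proteins and none of the 82 cytosolic ribosomal proteins was called by edgeR, with 0 and 2 at an unadjusted p under 0.05. The BCL2 family had Bmf and Pmaip1, also a BH3-only gene, as positive and Bak1, a pore-forming member, as negative genes of 17. None of the 46 interferon-stimulated genes was called by edgeR, with 5 at an unadjusted p under 0.05, and 41 lay below 0 (median -0.63 log2). Their median level was 6.70 log2 CPM in Bap1LysM BMM 1 and 6.66 in Bap1LysM preOC 1, above the other BMMs (5.25 to 5.68) and preOCs (3.72 to 5.66). Of the 46, 13 were called negative without Bap1LysM replicate 1. The remaining lists had at most 2 called genes in each direction, and at most 4 without Bap1LysM replicate 1.

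**Figure D5:**
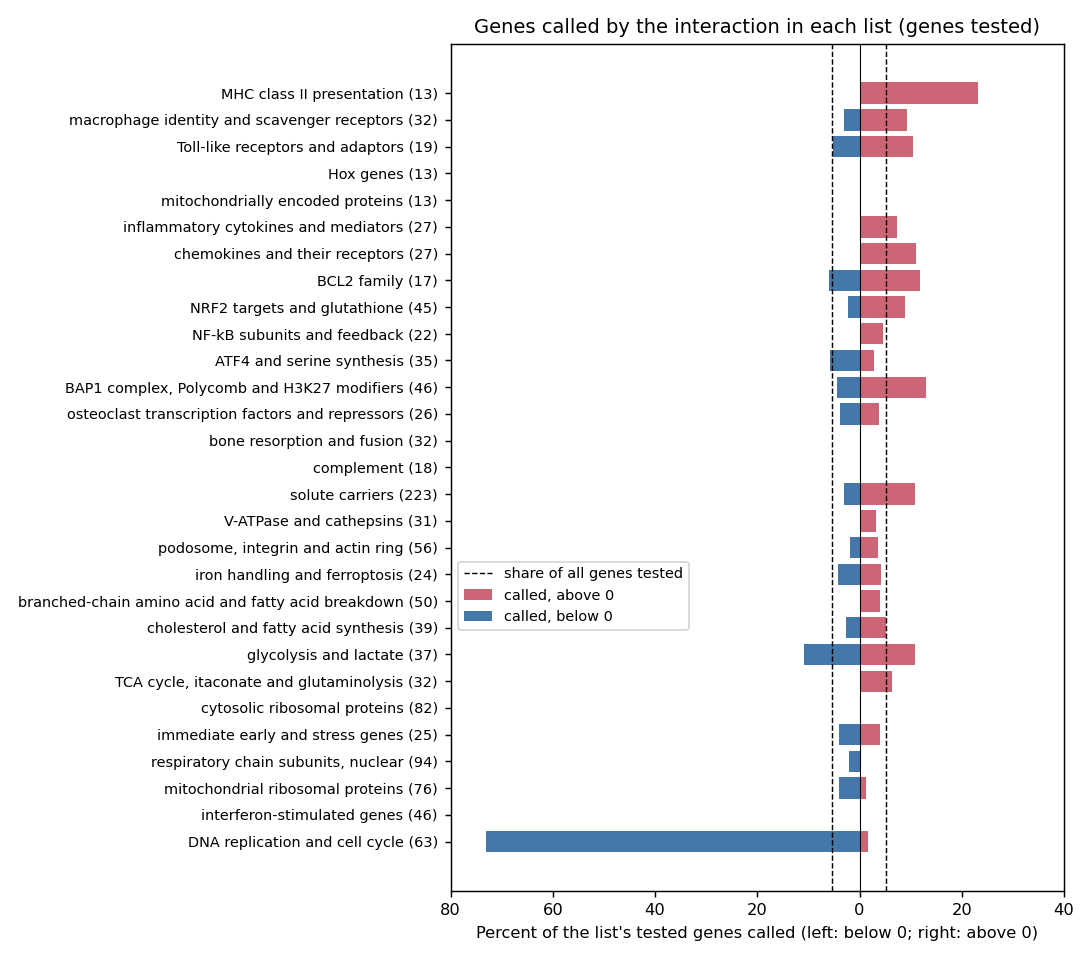
Percent of the tested genes of each list called by the interaction, with cell type marker and immunoglobulin lists left out, negative to the left and positive to the right, ordered by the median interaction. Dashed lines mark the shares over all genes tested, 5.10% positive and 5.32% negative, and DNA replication and cell cycle has the longest bar, with 46 of 63 genes negative.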

How the data were processed

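RNA of 17 mouse cell samples was sequenced after oligo-dT selection. The authors aligned reads with STAR 2.5.1a to GRCm38 and counted them per gene with featureCounts 1.4.6-p5, and they deposited the counts used here. The strand setting is not given in the sources used here. The deposited CPM and RPKM columns were not used. Of 41388 genes, 40254 had a symbol and 355 ribosomal RNA genes were left out.

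A gene entered the fit with over 1 CPM in 2 or more samples. The interaction was tested with edgeR 4.0.16 (R 4.3.3, limma 3.58.1, TMM factors, quasi-likelihood F test) on 4 groups with the library set (replicate numbers 1 to 3 or 4 to 6) as an additive term, with Benjamini-Hochberg adjustment across all genes in the fit. The study's own test, voomWithQualityWeights, and DESeq2 1.42.0 were alternatives. CPM values are TMM-scaled. SE is the log2 value over the square root of F. Each sample held at least 37967542 counts, so the spread between cultures limits precision. On simulated counts for 13810 genes, 200 of them changed by 1 log2, edgeR recovered 63% with 3.08% false calls among its 130 calls, voom 62.5% with 3.85% among 130 and DESeq2 74.5% with 15.3% among 176. The changed genes were taken from those with higher counts. Samples were drawn independently from the means and dispersions of the same fit, without effects shared by equal replicate numbers. These rates therefore check the code and do not carry over to the 1440 calls. Positions are those of the deposited files, gene types came from GENCODE M21 on the same build, and symbols from a table of gene IDs.

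Replicate numbers were checked for pairing by the correlation of deviations from the mean of each group and library set. Numbers 1 to 3 gave 0.219 to 0.356 between Bap1flox BMMs and preOCs, 0.34 and 0.478 in Bap1LysM, 0.304 to 0.494 between the BMM genotypes and 0.315 and 0.397 between the preOC genotypes. These values were all positive, but samples of unequal number were not correlated for comparison, so they do not establish pairing. Numbers 4 to 6 gave -0.142 to 0.0111. Nothing in the labels says whether equal numbers mark a shared animal, litter or day.

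Named genes were, in each direction, the 10 with the largest interaction and the 5 with the smallest p among called genes with the same sign and an unadjusted p under 0.05 in replicates 1 to 3, a mean of at least 5 CPM in a group and a symbol other than a Gm, Rik, AI, BC or immunoglobulin name, the 5 with the largest interaction among those with opposite called genotype effects, up to 6 called members of each list by p, and genes the study measures. The comparison, lists and rule were chosen with earlier results of these data known. The study describes its preOC samples of 20-week-old mice as biologically independent. For the BMMs no such statement was found, so their spread may be technical. Alternatives were other tools, scalings and filters, fits without the library-set term or with a replicate block, and each sample left out in turn. Leaving out Bap1LysM replicate 1 and scaling by library totals were chosen after seeing the data.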

Additional observations from a re-analysis of the deposited data

Results flagged for a closer look

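The genotype effect differed between BMMs and preOCs, by the interaction test itself, for 1440 genes. Among the genes given by sample in the report, the interaction was negative for Mcm5 (-1.82 log2), Mcm6 (-1.38), Uhrf1 (-1.92), Gins2 (-1.49), Mcm10 (-1.68), Timeless (-1.82), Myc (-1.40), Id1 (-2.52), Sgsm1 (-3.92), Bdh2 (-2.72), Nup210 (-1.63), Col4a5 (-2.02) and Cspg4 (-1.64). It was positive for P2ry14 (2.26 log2), Gstt3 (1.40), Susd2 (4.02), Clu (4.38), Il4i1 (2.71), Ggt5 (2.82), Gprc5c (2.83), Cd86 (2.21), Cxcr4 (1.64), Kmo (2.52), Gpr162 (2.80), Bmf (1.87), Cbx7 (1.40) and Csf1r (0.64).

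Of 70 groups of preOC values examined, 6 held a sample far from the others by Dixon's criterion, which chance meets in about 1 of 20 groups. Bap1LysM preOC 1 was such a sample for 4 genes: Lyz2 (6890 CPM against 12.7 to 41.5 CPM in the other 4), Acp5 (839 CPM against 2154 to 2570 CPM), Nfatc1 (417.5 CPM against 810.1 to 934 CPM) and Id1 (13.6 CPM against 1.43 to 4.28 CPM). Bap1LysM preOC 2 stood apart for Sgsm1, at 8.66 CPM against 2.78 to 4.14 CPM. Bap1flox preOC 3 stood apart for Ggt5, at 2.42 CPM against 0.956 to 1.30 CPM, still below all Bap1LysM preOCs.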

How the results depend on the processing

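The 1440 interaction calls became 2928 with voomWithQualityWeights, 288 without the library-set term, 0 in replicates 1 to 3 alone and 0 with a replicate block within genotype, and 322 to 2236 with 1 sample left out. Of the DNA replication and cell-cycle genes, 46 called negative became 30 without the library-set term, 0 in replicates 1 to 3, 0 with the block within genotype and 27 to 52 with 1 sample left out. DESeq2 (2100), other size factors, filters and the additive replicate block (1859) stayed within 1.5 times. The cause of these shifts was not tested, except that replicates 1 to 3 hold 11 samples and the block within genotype rests on them.

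Over 108 called named genes, 2626 of 3345 values under other settings kept their call, 719 lost it and 0 turned sign. Without Bap1LysM replicate 1, 9 of the 108 lost their call, and with voomWithQualityWeights 3 did. With the additive replicate block Insig1, Osm, Ppbp, Slc16a1, Slc38a2 and Tlr5 lost it (adjusted p 0.0507 to 0.0705). Signs turned for 5 named genes that were not called. Lyz2 went to 0.10 log2 without the library-set term, 1.68 in replicates 1 to 3, 0.51 with the additive replicate block, 0.62 with the block within genotype, 0.91 without Bap1LysM replicate 1, and -5.66 to 4.60 with 1 sample left out. Ctsk went to 0.14 with voomWithQualityWeights, 0.52 without Bap1LysM replicate 1 and -0.59 to 0.34 with 1 sample left out. Bap1 went to 0.029 in replicates 1 to 3 and 0.014 with the block within genotype, Ehhadh to 0.11 in replicates 1 to 3 and Gss to 0.055 with that block. The cause was not tested.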
